A study of Mus musculus with 69 samples.

Results

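Transcripts of 10 genes that define the work of the proximal tubule were followed through RNA sequencing of mouse kidney, as 10 rows, chosen by gene symbol, of a table of 24411 genes. All 10 passed the filter of at least 2 counts over the libraries. The genes belong to cells that neither Cre driver of the experiment targets. Their levels in the pulldowns are given beside those in whole-kidney RNA.

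The study tagged new RNA in chosen cells with Uprt, a uracil phosphoribosyltransferase that lets 4-thiouracil (4-TU) enter RNA, and recovered that RNA on streptavidin beads after biotinylation. Hoxb7Cre;UPRTf/+ mice carry the enzyme in the collecting duct, and Atp6b1v1Cre;UPRTf/+ mice, spelled here as the labels spell it, carry it in the intercalated cells of the collecting duct and neighbouring segments. Every mouse, controls included, received 430 mg/kg of 4-TU 4 hours before the kidney was taken, and every library is from whole kidney, so that all other cell types were present in the starting RNA. Mice were untreated (Control), were given 4-TU 24 hours after both renal pedicles had been clamped for 10 minutes (iAKI, ischemic acute kidney injury), or were given it after 72 hours without food and water (vAKI, volume depletion). Hoxb7 pulldowns came from 10 Control, 7 iAKI and 7 vAKI libraries, and Atp6b1v1 pulldowns from 11 Control, 6 iAKI and 7 vAKI libraries. Whole-kidney RNA that had not been through the pulldown (Total) came from 21 Control libraries of the same genotypes, and injured kidneys were not analysed here as Total RNA. Mice were 5.5 months old, except for 10 Control libraries from mice of 3 months. Nothing in the labels says which libraries share a mouse. Taken in sample order, however, the Control pulldowns and the Total libraries have the same run of genotypes, sexes and ages. They may thus be paired, but the tests treat them as independent, and p-values measure the spread between these libraries.

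The 69 libraries held 12618062 to 30305464 counts, with a median of 20868430. Counts of genes specific to sex matched the labelled sex in every library. Of 8 principal cell genes, 6 were higher in the Hoxb7 pulldown than in Total, beside 35.6% of all genes, and of 9 intercalated cell genes, 6 were higher in the Atp6b1v1 pulldown than in Total, beside 34.4%. Numbers in the library names fall into the ranges 1 to 40 with 36 libraries, 65 to 85 with 21 libraries and 98 and above with 12 libraries. Of the 27 injured libraries, 22 were in the first range, 5 in the second and 0 in the third. The labels do not say what a range stands for, but the levels of the proximal tubule genes differed between ranges, and values within them are given beside the results they touch.

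The proximal tubule takes back most of what the glomerulus filters. Sodium enters the cell through apical exchangers and cotransporters, which carry glucose, phosphate and lactate with it. Filtered proteins are taken up by the paired receptors megalin and cubilin. Slc5a2 is the apical glucose carrier of the early tubule, Slc5a1 the high-affinity glucose carrier of the late tubule, and Slc2a2 the facilitative glucose transporter through which glucose leaves the cell. Slc34a1 and Slc34a3 are sodium phosphate cotransporters, Slc5a12 is a sodium-coupled lactate carrier, and Slc9a3 is the apical sodium proton exchanger, which the thick ascending limb also uses. Lrp2 encodes megalin, Cubn encodes cubilin, and Hnf4a is a transcription factor of proximal tubule cells.

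On GRCm38, the build named in the labels as mm10, Slc5a2 lies at chr7:128265657-128272430, Slc5a1 at chr5:33104219-33162870 and Slc2a2 at chr3:28697903-28731359, all on the plus strand. Slc34a1 is at chr13:55398187-55415592, Slc9a3 at chr13:74121457-74169442, Slc5a12 at chr2:110597298-110647779 and Hnf4a at chr2:163506808-163572910, again on the plus strand. Slc34a3 (chr2:25228898-25234364), Lrp2 (chr2:69424340-69586065) and Cubn (chr2:13276338-13491813) are on the minus strand. Counts are over the whole gene, exons with coding and untranslated parts. Exons of Slc5a2 share 597 bases with BC017158 on the other strand, those of Slc34a1 share 545 bases with Pfn3 and those of Cubn share 368 bases with Gm13270, so reads from those stretches cannot be assigned with certainty. Since 4-TU enters RNA as uridine, the U content of the longest coding transcript was computed, and it ran from 22.05% in Hnf4a to 30.2% in Slc2a2 beside a median of 24.42% over 17794 genes.

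Promoter windows of 250 bases before to 50 after the start site, from RefSeq on GRCm38.p6, were matched for 8 of the 10 genes, and Slc5a2 and Slc5a12 were not matched. Hnf4a had 2 windows, which makes 9 in all. They were searched on both strands for CAAAGT, a core of HNF4 binding sites. It was found in 3 of 9 windows (Slc34a1, Slc2a2 and Lrp2) and in 14.4% of all 32851 promoters listed. The windows of Slc34a1 at chr13:55399398-55399697 on the plus strand and of Lrp2 at chr2:69585980-69586279 on the minus strand are shown because these are the 2 genes with a match whose pulldown and Total libraries did not overlap in control kidneys. A match is a description of the letters and not a site. Capitals mark the match, which begins at -5 from the start site in Slc34a1, as ACTTTG, the same letters on the other strand, and at -154 in Lrp2.
Slc34a1: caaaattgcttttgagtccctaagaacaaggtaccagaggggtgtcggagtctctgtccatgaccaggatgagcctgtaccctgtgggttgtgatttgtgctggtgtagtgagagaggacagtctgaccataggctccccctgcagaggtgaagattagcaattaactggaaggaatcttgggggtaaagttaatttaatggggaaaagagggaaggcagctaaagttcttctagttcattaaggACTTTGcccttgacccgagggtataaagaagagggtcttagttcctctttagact
Lrp2: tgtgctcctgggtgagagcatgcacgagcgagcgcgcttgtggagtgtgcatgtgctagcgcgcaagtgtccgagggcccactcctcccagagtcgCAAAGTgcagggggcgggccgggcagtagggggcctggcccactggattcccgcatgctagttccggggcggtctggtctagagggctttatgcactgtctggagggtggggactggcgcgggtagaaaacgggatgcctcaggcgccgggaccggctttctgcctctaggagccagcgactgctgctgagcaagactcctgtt

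In control kidneys the pulldowns held less of most proximal tubule transcripts than Total RNA did, but levels relative to Total differed widely between genes. Slc5a2 and Slc34a3 were at 8.26% and 9.11% of their Total level in the Hoxb7 pulldown, while Hnf4a was not called in either pulldown and Slc9a3 was 1.58-fold higher. Levels are in CPM, edgeR's counts scaled by library size and TMM factor over all 69 libraries, and a gene was called when edgeR's quasi-likelihood test gave a Benjamini-Hochberg adjusted p under 0.05 over all 21175 genes tested. In the Hoxb7 pulldown 7 of 10 genes were called lower, beside 31.1% of all genes tested, and 1 was called higher, beside 35.6%. In 6 of the 10 no pulldown library reached the lowest Total library, which was so for 25.9% of all genes in either direction. In the Atp6b1v1 pulldown 8 of 10 were lower, beside 29.4% of all genes, and 1 was higher, beside 34.4%. The same 6 genes did not overlap with Total, beside 24.1% of all genes. Both comparisons use the same Total libraries. Pulldown and Total libraries both come from whole kidney, but the pulldown selects new, tagged RNA and Total RNA is not selected. A level relative to Total can thus reflect cell type, RNA turnover and RNA captured from other cells. The part of each was not tested. For markers out of keeping with their known segment, Slc9a3 among them, the paper proposes low RNA turnover or an incompletely known distribution. Between treatments or sexes, fewer cells of a type and less RNA per cell cannot be told apart in such bulk libraries.

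**Figure D1:**
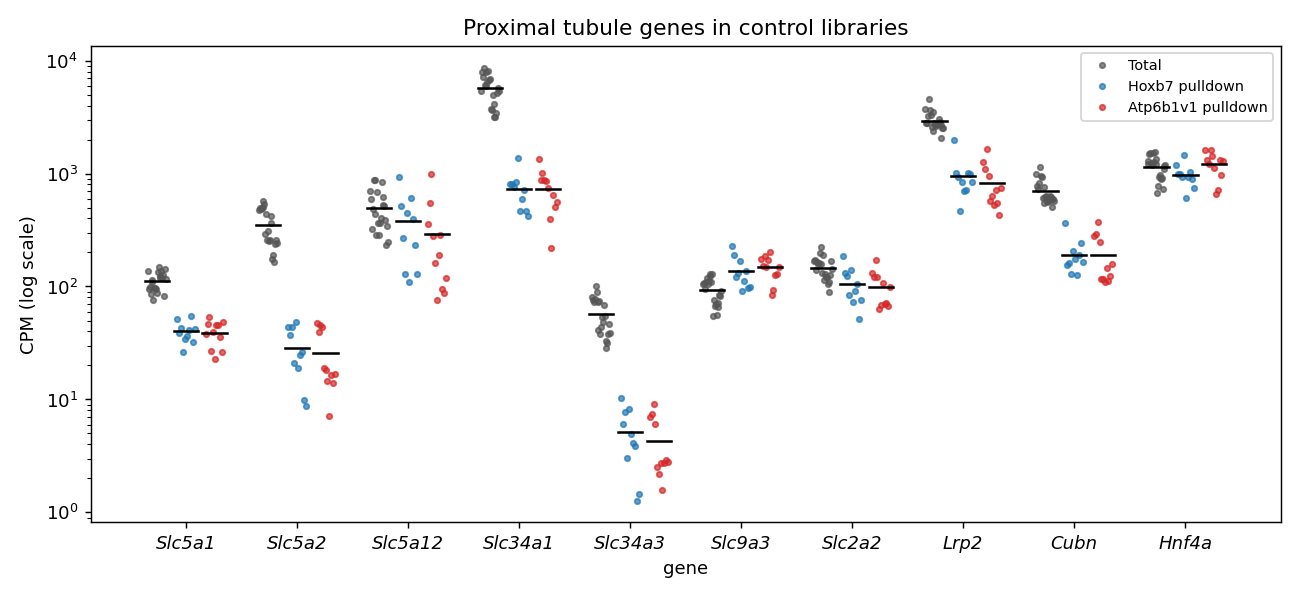
CPM (log scale) of the 10 genes in each Control library, as points, for Total (grey, n = 21), Hoxb7 pulldown (blue, n = 10) and Atp6b1v1 pulldown (red, n = 11), with means as black lines. Slc34a1, Slc34a3, Slc5a1, Slc5a2, Lrp2 and Cubn show no overlap between pulldown and Total, whereas Hnf4a, Slc5a12, Slc2a2 and Slc9a3 do.

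Of the glucose carriers, Slc5a2 ran from 166 to 567 CPM in Total with a median of 312 CPM, from 8.72 to 48.8 CPM in the Hoxb7 pulldown with a median of 25.4 CPM, and from 7.18 to 47.9 CPM in the Atp6b1v1 pulldown with a median of 18.1 CPM. The lowest Total library was thus above the highest pulldown library. Its log2 fold change against Total was -3.60 (SE 0.31, adjusted p = 2.93e-14) in the Hoxb7 and -3.75 (SE 0.30) in the Atp6b1v1 pulldown. Slc5a1 was at 112 ± 21.4 CPM in Total (SD, n = 21), 40.2 ± 8.54 CPM in the Hoxb7 pulldown (n = 10) and 38.97 ± 10.0 CPM in the Atp6b1v1 pulldown (n = 11). Its groups did not overlap either, and the log2 fold changes were -1.48 (SE 0.10, adjusted p = 1.82e-17) and -1.44. Slc2a2 stood closer to Total, with 147 ± 33.7 CPM there, 106.3 ± 39.5 CPM in the Hoxb7 and 99.4 ± 35.0 CPM in the Atp6b1v1 pulldown. Its libraries overlapped, and the log2 fold changes of -0.41 (adjusted p = 0.0225) and -0.52 (adjusted p = 0.0031) were lost among library numbers 1 to 40, at -0.10 and -0.23.

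The phosphate carriers were the most depleted together with Slc5a2. Slc34a1, the most abundant of the 10 in Total, ran there from 3168 to 8666 CPM with a median of 5742 CPM, against 423 to 1376 CPM (median 737 CPM) in the Hoxb7 pulldown and 219 to 1354 CPM (median 740 CPM) in the Atp6b1v1 pulldown. No library overlapped, and the log2 fold changes were -2.87 (SE 0.19, adjusted p = 8.85e-18) and -2.95. Slc34a3 was at 57.6 ± 21.2 CPM in Total, 5.11 ± 2.99 CPM in the Hoxb7 and 4.27 ± 2.59 CPM in the Atp6b1v1 pulldown, again without overlap. Slc34a1 at 13.7% of Total was still at a mean of 724 CPM in the Hoxb7 pulldown, above all members but Lrp2 and Hnf4a.

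The endocytic receptors stood at a larger percentage of Total. Lrp2 ran from 2043 to 4576 CPM in Total, from 464 to 1965 CPM in the Hoxb7 pulldown and from 425 to 1636 CPM in the Atp6b1v1 pulldown. The Hoxb7 pulldown was at 32.1% of Total, and the log2 fold changes were -1.64 (SE 0.17) and -1.76. Cubn, its partner, was at 701 ± 173 CPM in Total, 191 ± 69.9 CPM in the Hoxb7 and 189 ± 92.6 CPM in the Atp6b1v1 pulldown, with log2 fold changes of -1.87 (SE 0.19) and -1.83. For both receptors the pulldown libraries all lay under the Total libraries.

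The remaining genes behaved differently. Slc9a3 was higher in the pulldowns, at 93.5 ± 23.7 CPM in Total, 138 ± 45.3 CPM in the Hoxb7 and 147 ± 37.1 CPM in the Atp6b1v1 pulldown, with log2 fold changes of 0.66 (SE 0.13, adjusted p = 2.06e-05) and 0.67 (SE 0.13, adjusted p = 8.39e-06). The groups overlapped, but the call held in all 3 ranges of library numbers, from 0.58 to 0.82 for Hoxb7 and from 0.55 to 0.68 for Atp6b1v1. Hnf4a was at 1150 ± 261 CPM in Total, 978 ± 234 CPM in the Hoxb7 and 1204 ± 315 CPM in the Atp6b1v1 pulldown, and was called in neither (log2 fold change -0.13, adjusted p = 0.33, and 0.07, adjusted p = 0.606). Within numbers 1 to 40 alone it was called lower in the Hoxb7 pulldown, at -0.28 (adjusted p = 0.0436).

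Slc5a12 had the highest SD of log2 CPM, taken about the mean of each sex, of the 10 genes in the Hoxb7 Control pulldown. It ran from 109.02 to 924 CPM in the Hoxb7 pulldown (median 335 CPM), from 75.7 to 985 CPM in the Atp6b1v1 pulldown (median 192 CPM) and from 232 to 881 CPM in Total (median 441 CPM). It was not called in the Hoxb7 pulldown (log2 fold change -0.39, SE 0.30, adjusted p = 0.241) and was called lower in the Atp6b1v1 pulldown (-0.76, SE 0.29, adjusted p = 0.0198). The answer depended on the range of library numbers. For Hoxb7 the log2 fold change was -0.01 in numbers 1 to 40, -0.53 in 65 to 85 and -1.52 (adjusted p = 1.57e-04) in 98 and above, and for Atp6b1v1 it was -0.27, -1.68 (adjusted p = 0.00498) and -1.19 (adjusted p = 4.91e-05). The 6 genes without overlap were lower in every range, Slc5a2 for example by -3.54, -3.53 and -4.16 and Lrp2 by -1.34, -1.88 and -1.65 for Hoxb7.

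**Figure D2:**
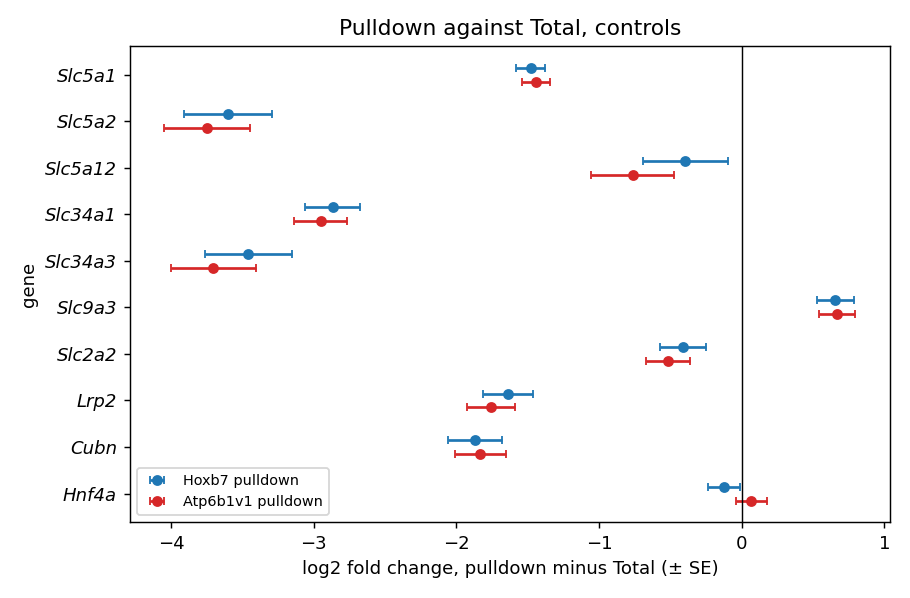
Log2 fold change of each gene in the Hoxb7 (blue) and Atp6b1v1 (red) Control pulldown against Total, with bars of 1 SE. Slc5a2 and Slc34a3 lie near or below -3.46, Slc5a1, Lrp2 and Cubn between -1.44 and -1.87, Hnf4a at 0 within about 1 SE, and Slc9a3 above 0 in both.

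The order of abundance differed between Total and the pulldowns. Per kilobase of exon, a scale that corrects for length and not for the U content of 22.05% to 30.2%, Slc34a1 led in Total with 1220 CPM per kb, ahead of Hnf4a with 238, Lrp2 with 176 and Slc5a12 and Slc5a2 with 122 CPM per kb each. In the Hoxb7 pulldown Hnf4a led with 203 ± 48.6 CPM per kb, followed by Slc34a1 with 155 ± 59.2, Slc5a12 with 92.9 ± 63.8 and Lrp2 with 56.6 ± 23.8 CPM per kb, and the Atp6b1v1 pulldown had the same order of these 4. In the Hoxb7 pulldown neighbours in this order, from Hnf4a to Lrp2, differed by less than the larger of their SDs, whereas Slc34a1 stood apart in Total. Slc9a3, the lowest of the 10 in Total with 17.0 CPM per kb, was the fifth in both pulldowns with 25.1 and 26.8 CPM per kb, and Slc34a3 was the lowest with 2.17 and 1.81 CPM per kb.

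Of the other proximal tubule genes examined, enzymes of the segment were depleted at least as deeply, with 13 of 14 lower in the Hoxb7 and 14 of 14 lower in the Atp6b1v1 pulldown and median log2 fold changes of -2.71 and -2.47, where the median of all genes was 0.11. Miox, which starts inositol breakdown, was at -4.43 in the Hoxb7 pulldown, and Gatm, which makes the precursor of creatine, was at -4.04. Other transporters and their scaffolds were lower in 18 and 19 of 21, with medians of -1.77 and -1.89. The organic anion carrier Slc22a8 was at -3.66 and the sodium-coupled sugar carrier Slc5a10 at -3.18 in the Hoxb7 pulldown, whereas the 1 gene that was higher there was Slc20a1, a phosphate carrier found in many cells, at 0.99. Partners of megalin and cubilin in endocytosis were lower in 9 and 10 of 14 and higher in 3 and 4, with amnionless (Amn), which carries cubilin to the membrane, at -3.71 and the Fc receptor Fcgrt, which salvages albumin and antibodies, at -2.85. Of 6 transcription factors 2 were lower and 2 higher in the Hoxb7 and 1 lower and 2 higher in the Atp6b1v1 pulldown. Among them were Ppara at 0.82 and Esrra at -1.05 in the Hoxb7 pulldown. For every list the shares of all genes were 31.1% lower and 35.6% higher in the Hoxb7 pulldown. In the Atp6b1v1 pulldown they were 29.4% and 34.4%. The counts of transcription factors in the Hoxb7 pulldown were near these shares.

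Between the 2 control pulldowns 0 of 10 genes were called by edgeR, beside 9.93% of all genes, and 0 by DESeq2. Of the 10, 0 had an unadjusted p under 0.05. The log2 fold changes of Atp6b1v1 against Hoxb7 ran from -0.37 (SE 0.33) for Slc5a12 to 0.19 (SE 0.13) for Hnf4a. Within library numbers 1 to 40 Hnf4a was called higher at 0.44, and within 65 to 85 Cubn was called lower at -0.56.

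Summed over the 10 genes, Total held 8342 to 15691 CPM, the Hoxb7 Control pulldown 2279 to 5774 CPM and the Atp6b1v1 Control pulldown 2145 to 5668 CPM. The genes also varied more between pulldown libraries of a group than most genes did. The SD of log2 CPM was taken about the mean of each sex. That of Slc5a12 in the Hoxb7 Control pulldown was 1.12, at the 99.1 percentile of genes with a mean count of at least 10. That of Slc5a2 in the Atp6b1v1 Control pulldown was 0.93, at the 98.7 percentile. The medians over all such genes were 0.28 and 0.27. In Total, Slc5a2 had an SD of 0.58 and Lrp2 of 0.25. Part of this spread lay between the ranges of library numbers. The sum over the 10 genes in the Atp6b1v1 Control pulldown of males was 4306 and 5272 CPM in numbers 1 to 40, 3002 and 3428 CPM in 65 to 85 and 2359 to 3191 CPM in 98 and above, the last from mice of 3 months. Total males of the 3 ranges had means of 14628, 12988 and 10421 CPM, again with mice of 3 months in the last.

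The genes rose and fell together across libraries of a group. With the mean of each sex subtracted, the median Pearson r over the 45 pairs was 0.67 in the 10 Hoxb7 Control libraries. It was 0.79 in the 11 Atp6b1v1 and 0.75 in the 21 Total Control libraries. These values share library and range of library numbers and are given as a description. Slc5a2 and Slc34a3 were the closest pair in each, with r of 0.96, 0.97 and 0.97. Slc5a1 was the exception, with 9 pairs below 0 in Total, down to -0.45 with Hnf4a. Over all 69 libraries the genes most like the mean of the 10 were Enpp2 (r = 0.94), Ildr2 (0.94), the cystine carrier subunit Slc7a9 (0.93), the leaky tight junction protein Cldn2 (0.91), F5, Abat, Myo7b and Olfm3. Over these 69 libraries, which mix pulldowns and Total, Slc9a3 did not follow that mean (r = -0.19). The genes most like it there were Gpld1 (r = 0.81), Mrs2, Zmym3, Prkd3 and Cers6. Within Control groups Slc9a3 did go with the members other than Slc5a1. Its r with them was 0.65 to 0.87 in the Hoxb7, 0.47 to 0.78 in the Atp6b1v1 and 0.55 to 0.78 in the Total libraries. With Slc5a1 it was 0.57, 0.05 and -0.37.

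After iAKI 3 of the 10 genes, Slc34a1, Slc5a12 and Hnf4a, were lower in the Atp6b1v1 pulldown of males, with Slc34a1 and Slc5a12 at 18.5% and 19.3% of Control. No gene of the 10 was called in the Hoxb7 pulldown. Injury was compared in 1 fit of the pulldown libraries of males aged 5.5 months, 22 in number. In the Atp6b1v1 pulldown these 3 calls of 10, all lower, stood beside 4.74% of all genes called lower and 8.51% in either direction. At an unadjusted p under 0.05 there were 8, and no share of all genes is given for that count. In 6 the iAKI and Control libraries did not overlap, beside 20.6% of all genes.

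Slc34a1 in the Atp6b1v1 pulldown of males was at 740, 861, 870 and 1354 CPM in Control and at 164, 169 and 201 CPM after iAKI. Every injured library was thus far below every Control library, with a log2 fold change of -2.43 (SE 0.46, adjusted p = 0.00287). Slc5a12 was at 75.7, 163, 279 and 355 CPM in Control and 21.9, 48.2 and 55.9 CPM after iAKI, a log2 fold change of -2.37 (SE 0.56, adjusted p = 0.0116). Hnf4a fell from 1126, 1425, 1599 and 1606 CPM to 525.9, 546.7 and 579.3 CPM, a log2 fold change of -1.39 (SE 0.37, adjusted p = 0.0208). These are the 3 genes called. Leaving out any 1 of the 7 libraries kept the call of Slc34a1. That of Slc5a12 was lost without iAKI replicate 1 (-2.48, adjusted p = 0.0569) or 4 (-2.06, adjusted p = 0.0589), and that of Hnf4a without iAKI replicate 1 (-1.37), 4 (-1.42) or 5 (-1.34).

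The receptors were lower in every iAKI library without passing the test. Lrp2 was at 566, 629, 959 and 1277 CPM in Control and 334, 499 and 552 CPM after iAKI (log2 fold change -0.90, SE 0.35, adjusted p = 0.11), and Cubn at 117 to 282 CPM and 87.7 to 111 CPM (-0.94, SE 0.33, adjusted p = 0.0778). Slc5a1 went the other way, from 22.9, 27.1, 37.98 and 39.56 CPM to 43.6, 43.7 and 59.7 CPM (0.61, SE 0.20, adjusted p = 0.0627). Slc5a2, Slc34a3, Slc9a3 and Slc2a2 overlapped with Control, at -1.48, -1.45, -0.40 and -0.41.

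The Control group held 2 libraries of numbers 1 to 40 and 2 of numbers 65 to 85, which differed for most of these genes. Among numbers 1 to 40 alone 7 genes were called lower, beside 13% of all genes called in either direction. On the log2 scale Slc5a12 was at -3.19, Slc34a1 at -2.62, Slc5a2 at -1.83 and Slc34a3 at -1.66. Hnf4a was at -1.52, Cubn at -1.33 and Lrp2 at -1.11. Numbers 65 to 85 held 1 male iAKI library, and no test is given there. That library was at 169 CPM for Slc34a1, where the 2 Control libraries of the range were at 740 and 861 CPM, at 525.9 CPM for Hnf4a, where they were at 1126 and 1425 CPM, and at 59.7 CPM for Slc5a1. In females, Slc34a1 was at 219, 398, 875 and 1007 CPM in Control and 59.3, 578 and 589 CPM after iAKI, overlapping groups with a log2 fold change of -0.63 (adjusted p = 0.564), whereas Slc5a1 was at 45.2 to 53.4 CPM and 79.1 to 87.9 CPM and was called higher, at 0.77 (adjusted p = 0.0367).

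In the Hoxb7 pulldown after iAKI 0 of 10 genes were called by edgeR, beside 6.13% of all genes, and 0 by DESeq2. Of the 10, 0 had an unadjusted p under 0.05. Slc34a1 was at 758, 801, 836 and 1376 CPM in Control and 356, 731, 750 and 840 CPM after iAKI (log2 fold change -0.48, SE 0.39). Hnf4a was at 927 to 1469 CPM and 785 to 1190 CPM (-0.07, SE 0.33), and Lrp2 at 464 to 1008 CPM and 523 to 1137 CPM (0.18, SE 0.32). All groups overlapped. The response of Slc34a1 differed between the pulldowns, by -1.95 on the log2 scale (SE 0.59, adjusted p = 0.0439), the 1 gene of 10 called in that interaction, beside 7.79% of all genes. That call was lost in 13 of 15 fits that left out 1 library, with adjusted p up to 0.102 and the difference between -1.74 and -2.05 in them. It was kept without iAKI Hoxb7 replicate 5 and without Control Hoxb7 replicate 5. Within numbers 1 to 40, 6 genes were called in the interaction, beside 15.3% of all genes, all lower: Slc5a12 at -2.55, Slc34a1 at -2.40, Slc5a2 at -2.10, Hnf4a at -1.59, Cubn at -1.53 and Slc9a3 at -1.03.

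**Figure D3:**
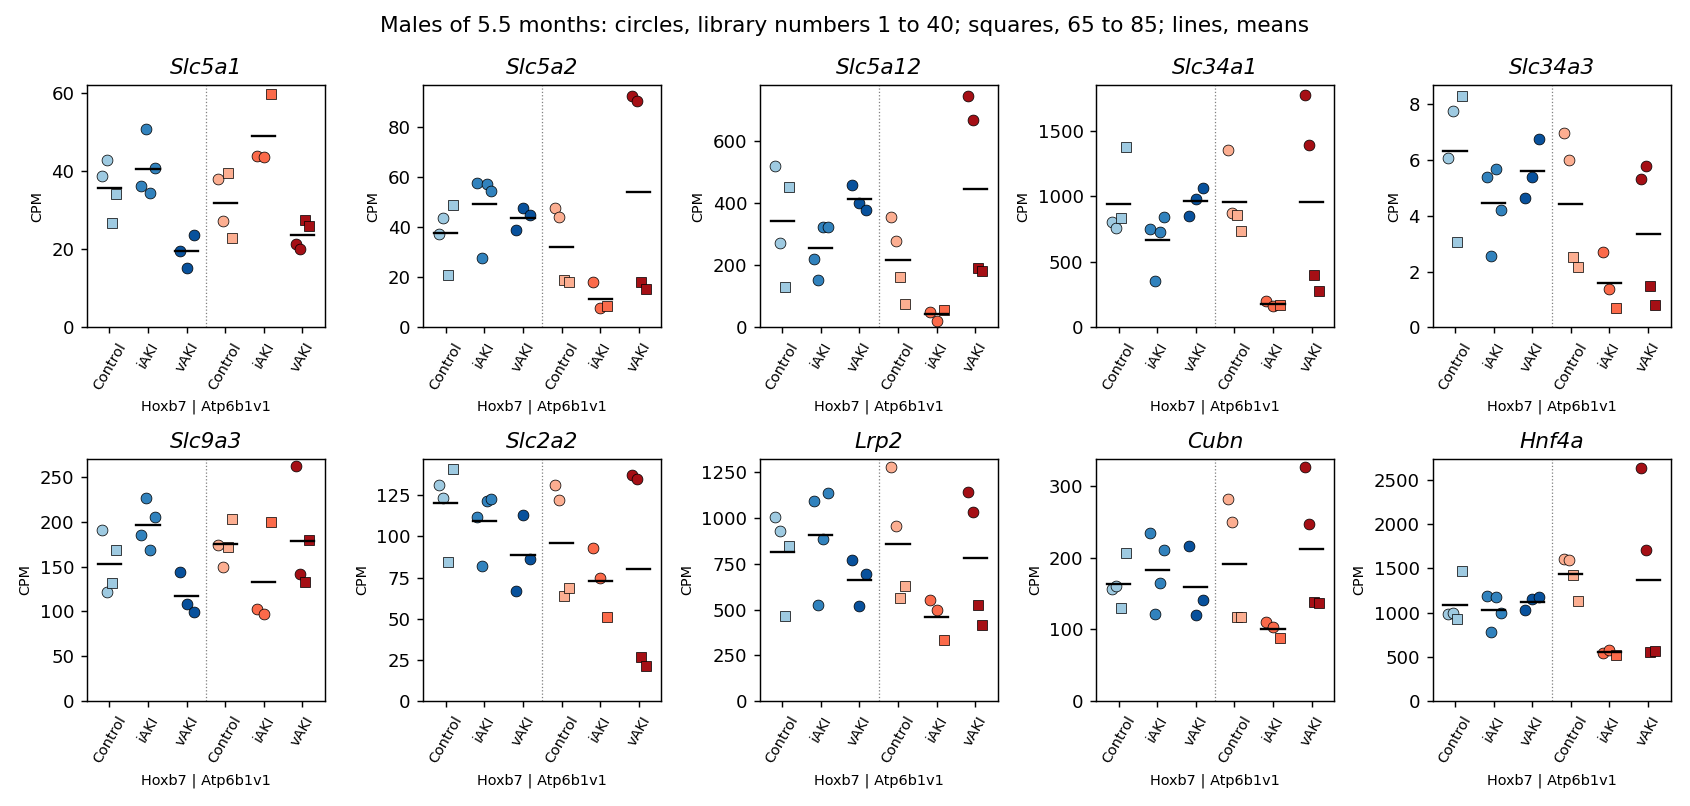
CPM of each gene in the 22 pulldown libraries of males of 5.5 months, by pulldown and treatment, with circles for library numbers 1 to 40, squares for 65 to 85 and lines for means. In the Atp6b1v1 pulldown the iAKI libraries are low for Slc34a1, Slc5a12 and Hnf4a, and the vAKI circles lie above the vAKI squares for most genes, Slc5a1 and Slc9a3 being exceptions.

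Of the other proximal tubule genes in the Atp6b1v1 pulldown after iAKI, 6 of 21 transporters and 4 of 14 enzymes were lower, beside 4.74% of all genes, and 0 were higher, beside 3.77%, with medians of -0.55 and -0.59 where the median of all genes was 0. Among them were the amino acid carriers Slc6a19 (-1.67) and Slc3a1 (-1.21), the lactate and short fatty acid carrier Slc5a8 (-1.31), Acsm2 (-2.01) and Miox (-1.76). Endocytosis partners were split, 2 higher and 1 lower of 14, the lower being Lrpap1, the chaperone of megalin, at -0.77. Transcription factors gave 0 calls of 6, with a median of -0.71. Of 7 genes of the injured tubule, 5 were higher in each pulldown after iAKI, beside 3.34% of all genes in the Hoxb7 and 3.77% in the Atp6b1v1 pulldown, with Havcr1, the injury marker Kim-1, at 6.03 in the Atp6b1v1 and 5.45 in the Hoxb7 pulldown. Their summed level was 434 to 610 CPM in Control and 880 to 4545 CPM in iAKI Atp6b1v1 libraries, and 411 to 585 CPM and 680 to 3932 CPM in the Hoxb7 pulldown. Their part in the levels of the 10 genes was not tested.

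After vAKI Slc5a1 fell in the Hoxb7 pulldown of males to 54.8% of Control, and the other genes were not called. It was at 26.6, 34.2, 38.7 and 42.9 CPM in Control and 15.1, 19.6 and 23.6 CPM after vAKI, with no overlap and a log2 fold change of -0.87 (SE 0.21, adjusted p = 0.00257). It was the 1 call of 10, beside 35.5% of all genes. The other 9 ran from -0.43 for Slc2a2 to 0.27 for Slc5a12, with SEs of 0.24 to 0.52. In females of 5.5 months Slc5a1 was at 32.3, 36.8, 42.1 and 51.8 CPM in Control and 32.01, 44.06, 51.6 and 61.0 CPM after vAKI, a log2 fold change of 0.21 (adjusted p = 0.812). The difference between the sexes was itself called for Slc5a1, at 1.07 (SE 0.28, adjusted p = 0.0103), the 1 call of 10 beside 16% of all genes.

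In the Atp6b1v1 pulldown after vAKI 0 of 10 genes were called by edgeR or by DESeq2, beside 14.6% of all genes, and Slc5a1 and Slc5a12 had an unadjusted p under 0.05. The libraries fell into 2 sets by their numbers. Slc34a1 was at 1390 and 1771 CPM in numbers 1 to 40 and 280 and 403 CPM in 65 to 85, where Control was at 870 and 1354 CPM and at 740 and 861 CPM. Hnf4a was at 1711 and 2633 CPM against 553 and 570 CPM, with Control at 1599 and 1606 CPM and at 1126 and 1425 CPM. The vAKI libraries were thus above Control in one range and below it in the other. Summed over the 10 genes, vAKI males were at 5443 and 7138 CPM and at 1829 and 2019 CPM. Within 65 to 85, 3 genes were called lower, Slc2a2 at -1.46 (adjusted p = 2.53e-04), Slc34a1 at -1.22 (adjusted p = 0.00122) and Hnf4a at -1.18 (adjusted p = 6.37e-04). Those calls rest on 2 vAKI and 2 Control males, and the share of all genes called in that range is not given. Within 1 to 40 these 3 genes were at 0.10, 0.50 and 0.43. There 0 of 10 were called, the nearest being Slc5a12 at 1.15 (adjusted p = 0.0509). The driver difference of the vAKI response gave 0 calls of 10 by edgeR, beside 4.2% of all genes, and 0 by DESeq2. Of the 10, 0 had an unadjusted p under 0.05.

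After vAKI 17.9% of all genes were higher and 17.6% lower in the Hoxb7 pulldown, and the lists of other proximal tubule genes are read beside these shares. There 4 of 14 enzymes were higher, among them Khk (1.51), which starts the breakdown of fructose, and Ggt1 (1.07), and 2 were lower, with Keg1 at -1.55. Of 21 transporters 1 was higher, Slc20a1 at 2.45, and 2 were lower. In the Atp6b1v1 pulldown, where 6.47% of all genes were lower and 8.11% higher, 6 of 21 transporters were lower, with the dicarboxylate carrier Slc13a3 at -1.86 and the organic anion carrier Slc22a6 at -1.55, 1 was higher, and 4 of 14 enzymes were lower. The medians of these lists lay between -0.29 and 0.03.

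**Figure D4:**
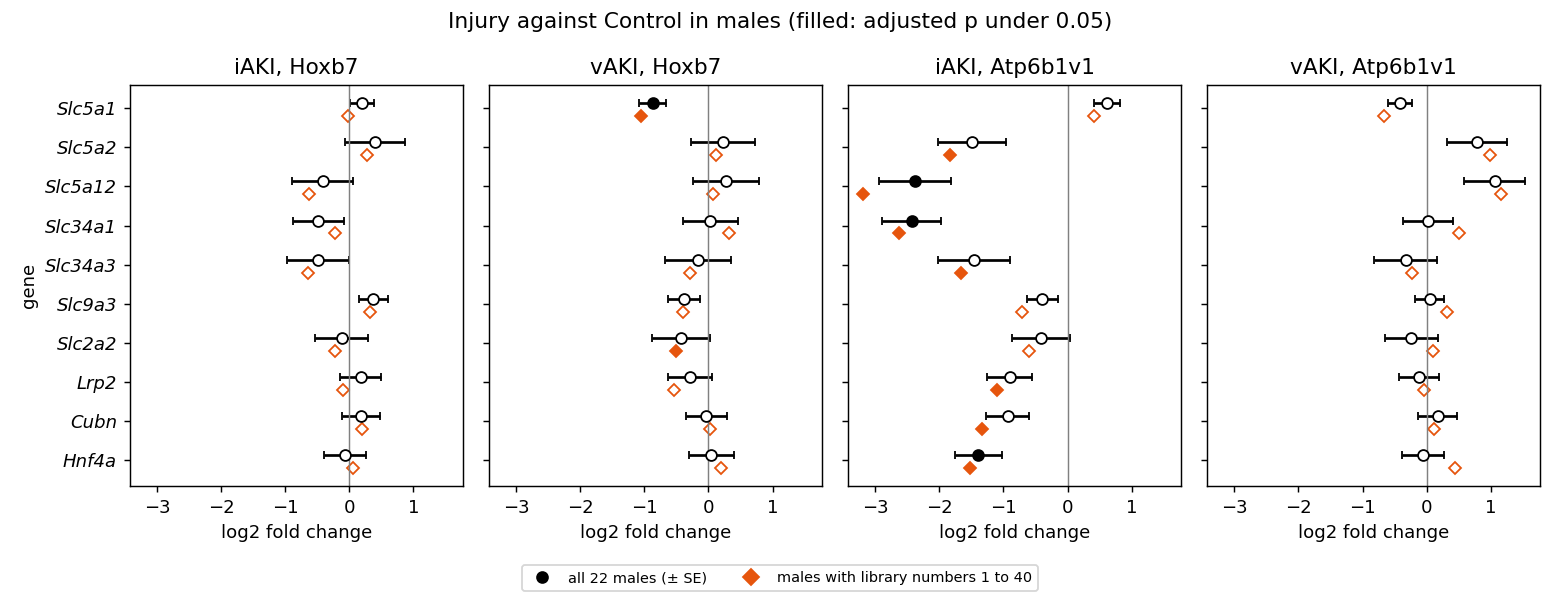
Log2 fold change of injured against Control males for each gene in 4 panels, with black circles for all 22 males (bars of 1 SE) and orange diamonds for library numbers 1 to 40 alone, filled where the adjusted p was under 0.05. Filled symbols are mostly in the panel of iAKI in the Atp6b1v1 pulldown, where 3 circles and 7 diamonds are filled to the left of 0.

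Set against each other in the Atp6b1v1 pulldown, vAKI and iAKI differed in 6 of 10 genes, beside 29.3% of all genes. Slc5a12 was higher after vAKI by 3.43 (SE 0.59, adjusted p = 1.73e-04), Slc34a1 by 2.46 (adjusted p = 3.97e-04), Slc5a2 by 2.26 (adjusted p = 0.00317), Hnf4a by 1.34 (adjusted p = 0.00793) and Cubn by 1.10 (adjusted p = 0.0142). Slc5a1 was lower, by -1.03 (SE 0.20, adjusted p = 6.69e-04). Groups did not overlap for 4 genes, Slc5a1, Slc5a12, Slc34a1 and Cubn, beside 29.6% of all genes. The call of Cubn was lost without vAKI replicate 1 (0.82) or iAKI replicate 5 (0.99). Within numbers 1 to 40 all 10 genes were called, beside 30.2% of all genes, 9 higher and Slc5a1 lower, with Slc5a12 at 4.34 and Slc34a1 at 3.12. Numbers 65 to 85 held 2 vAKI libraries and 1 iAKI library, so no adjusted p is given for them. There Slc34a1 was at 280 and 403 CPM after vAKI and 169 CPM after iAKI, and Slc5a12 at 183 and 191 CPM and 55.9 CPM. Hnf4a was nearly level, at 553 and 570 CPM against 525.9 CPM, and Slc2a2 lay the other way, at 21.2 and 26.7 CPM after vAKI and 50.9 CPM after iAKI. The differences of Slc34a1, Slc5a12 and Hnf4a were thus smaller there than in numbers 1 to 40, and that of Slc2a2 turned.

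In the Hoxb7 pulldown 2 of 10 differed, beside 33.3% of all genes, both lower after vAKI. Slc5a1 was at 34.3, 36.2, 40.8 and 50.7 CPM after iAKI against 15.1 to 23.6 CPM after vAKI, a log2 fold change of -1.07 (SE 0.21, adjusted p = 4.75e-04). Slc9a3 was at 169, 186, 205 and 226 CPM after iAKI and 99.2 to 144 CPM after vAKI, a log2 fold change of -0.75 (SE 0.25, adjusted p = 0.0209). Neither overlapped. The call of Slc9a3 was lost without iAKI replicate 5 (-0.66) and without vAKI replicate 6 (-0.70) or 7 (-0.65), and in females its log2 fold change was 0.07. The values for iAKI libraries enter both this comparison and that with Control.

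Between the sexes, Total RNA of Control females held more Slc5a1 and less Slc34a1, Hnf4a and Slc9a3 than that of males, 4 calls of 10 beside 29.4% of all genes. Slc5a1 was at a mean of 127 CPM in females (n = 10) and 97.9 CPM in males (n = 11), a log2 fold change of 0.37 (SE 0.11, adjusted p = 0.00812). Slc34a1 was at 4360 and 6925 CPM (-0.68, SE 0.19, adjusted p = 0.00527), Hnf4a at 955 and 1327 CPM (-0.49, SE 0.13, adjusted p = 0.00297) and Slc9a3 at 79.2 and 106.5 CPM (-0.44, SE 0.15, adjusted p = 0.0269). All of these overlapped. Slc9a3 was not called among mice of 5.5 months alone, at -0.50. Summed over the 10 genes, Total means of females and males were 13869 and 14628 CPM in library numbers 1 to 40. They were 9494 and 12988 CPM in 65 to 85, and 8551 and 10421 CPM in 98 and above, where the males were of 3 months.

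In the Hoxb7 Control pulldown 0 of 10 were called by sex, by edgeR and by DESeq2, beside 10.3% of all genes, and 1, Slc34a1 at -0.72, had an unadjusted p under 0.05. In the Atp6b1v1 Control pulldown 1 was called, beside 4.08% of all genes. Slc5a12 was at 192, 285, 551 and 985 CPM in females, and in males it ran from 75.7 to 355 CPM, a log2 fold change of 1.58 (SE 0.45, adjusted p = 0.0295). Without Control replicate 7 it was 1.53 (adjusted p = 0.0646), without replicate 8 it was 1.02 (adjusted p = 0.316), and among mice of 5.5 months it was 1.197, none of them called. The libraries at 551 and 985 CPM were the 2 females of library numbers 1 to 40, a range that held 2 of the 7 males. For the difference between the sexes in the response to iAKI in the Hoxb7 pulldown, 0 of 10 were called by edgeR, beside 10.5% of all genes. By DESeq2 0 were called, and 0 had an unadjusted p under 0.05. In the Atp6b1v1 pulldown 0 of 10 were called for iAKI and 0 for vAKI by either tool, beside 0% and 0% of all genes, and 1 gene, Slc34a1 for iAKI at 1.796 (SE 0.76), had an unadjusted p under 0.05.

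**Figure D5:**
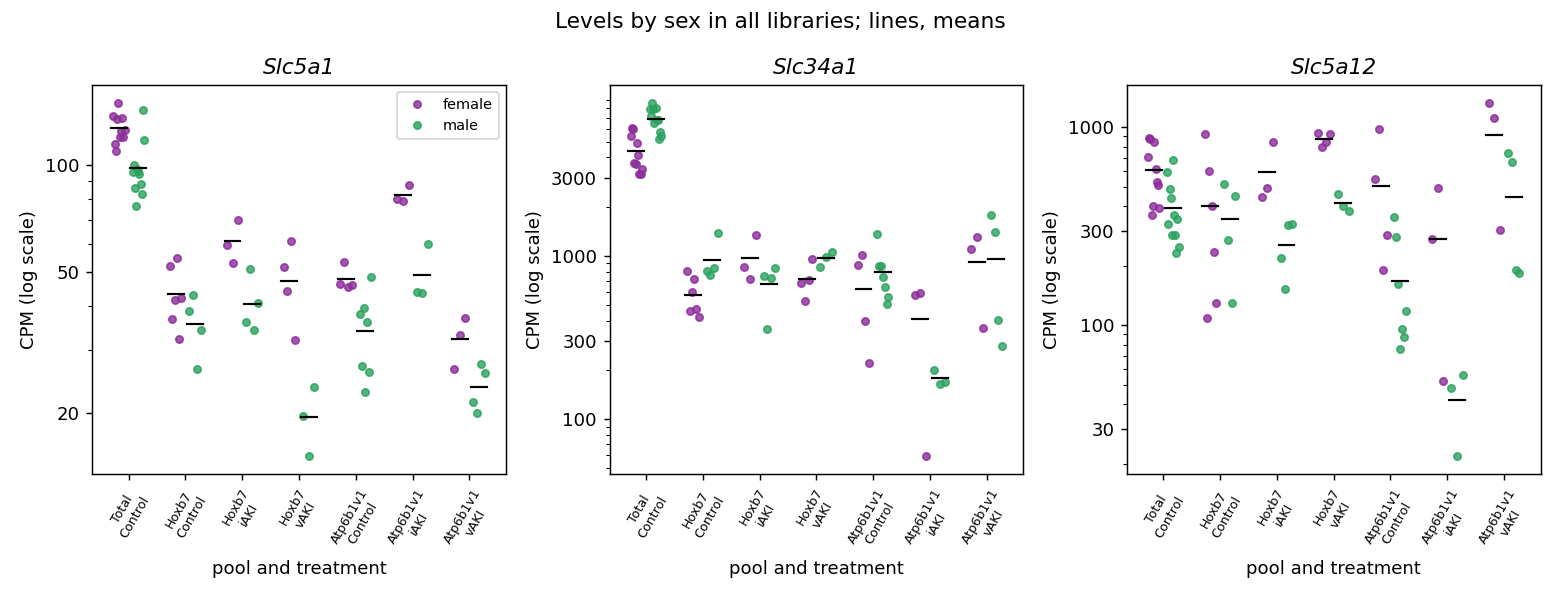
CPM (log scale) of Slc5a1, Slc34a1 and Slc5a12 in all 69 libraries by pool and treatment, females in purple and males in green, with lines for means. Slc5a1 after vAKI in the Hoxb7 pulldown is lower in males, at 15.1 to 23.6 CPM, than in females, at 32.01 to 61.0 CPM.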

How the data were processed

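As the submitters' processing notes and the methods of the study tell, the authors used CASAVA (1.8.2) and Trimmomatic (0.36) for trimming, STAR (2.5.3a) for alignment to mm10 and HTSeq (0.6.1p2) for counting. The deposited values are raw counts by gene symbol, without normalization. The annotation used for counting is not given in the sources used here. Of 24411 genes, 21175 had 2 or more counts in all libraries together and were tested in edgeR (4.0.16, R 4.3.3) with TMM scaling, the quasi-likelihood test and Benjamini-Hochberg adjustment at 0.05. Fits were controls as pool plus sex (42 libraries), injury in males of 5.5 months (22), sex in controls as pool by sex, and sex by injury in pulldowns of 5.5 months (43). Log2 CPM used a prior count of 2. Code was tested on simulated data. All 10 genes are named in each comparison; of each other list at most 4, the called ones with the largest change; and for likeness the 8 genes with the highest r to the mean z-score of the 10 and the 5 with the highest r to Slc9a3. A gene named outside these rules, because its count was 5 or fewer, was chosen after its values were seen. Members and lists were chosen with earlier results of these data known. Ranges of library numbers were examined after seeing the data. Alternatives were DESeq2 (1.42.0), its size factors, other filters, a fold threshold, sexes, ages, a replicate block and leaving out single libraries. Positions are from GENCODE on GRCm38.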

Additional observations from a re-analysis of the deposited data

Results flagged for a closer look

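Within groups of 4 to 10 libraries, 80 sets of 1 gene and 1 group were examined by Dixon's 95% criterion for a library apart from all others. Of these sets, 10 held such a library. Chance alone gives about 1 in 20 for independent sets, but these share libraries, and the genes rose and fell together. The count of 10 is thus not read as an excess over chance. Control Hoxb7 replicate 1, a female of library numbers 1 to 40, was the highest for Lrp2 (1965 CPM, the others reaching 1008 CPM) and Cubn (365 CPM, the others reaching 241 CPM) among the 10 libraries of its group. Among the 4 females of 5.5 months in its group it was also the highest for Slc5a12 (924 CPM), Slc34a1 (802 CPM) and Slc9a3 (230 CPM). Control Hoxb7 replicate 5 was the highest for Slc34a1 (1376 CPM), both in its group of 10 and among 4 males, and for Hnf4a among the 4 males (1469 CPM, the others reaching 990 CPM). The library iAKI Hoxb7 replicate 5 was the lowest of 4 males for Slc5a2 (27.6 CPM, the others from 54.7 CPM). Control Atp6b1v1 replicate 8 was the highest of the 4 females for Slc5a1 (53.4 CPM).

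Some responses differed between groups by a test of the difference itself. That of Slc34a1 to iAKI was lower in the Atp6b1v1 than in the Hoxb7 pulldown by -1.95 on the log2 scale, a call lost in 16 of 25 alternatives, 13 of them fits without 1 library. That of Slc5a1 to vAKI in the Hoxb7 pulldown was higher in females than in males by 1.07.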

How the results depend on the processing

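Of 521 alternative values of the 36 called fold changes, 462 kept direction and call, 56 kept direction only and 3 turned, all among females alone: Slc5a1 for vAKI against Control in the Hoxb7 pulldown (0.21), Slc9a3 for vAKI against iAKI there (0.069) and Hnf4a for vAKI against iAKI in the Atp6b1v1 pulldown (-0.020). Of 2569 alternative values of the 144 uncalled ones, 83 were called and 242 had the other sign. Both sets of alternatives include the fit of males of numbers 65 to 85, where the iAKI group was 1 library. The 6 genes without overlap between pulldown and Total kept their call under every alternative run. Depth limits mainly Slc34a3, which had the lowest levels in pulldowns.

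The share of all genes called also moves with the setting, and for most settings it is not given. For iAKI in the Atp6b1v1 pulldown it was 8.51%, and 13% in numbers 1 to 40. A changed count, here or with a replicate block, is thus not in itself particular to these genes. Counts of genes called, of 10, moved as follows. With iAKI in the Atp6b1v1 pulldown (3 in the report) 7 were called by DESeq2, 8 with the range of library numbers as a covariate, 7 with both sexes, 1 in females, 7 in numbers 1 to 40, 8 there with both sexes, and 1 to 5 when single libraries were left out, with 1 without iAKI replicate 1 or 4 and 5 without Control replicate 10. For vAKI in the Hoxb7 pulldown (1) the counts were 0 with a fold threshold added, 3 with the range as a covariate, 0 with both sexes, 0 in females and 2 in numbers 1 to 40, and for iAKI there (0) it was 1 with that covariate. For vAKI in the Atp6b1v1 pulldown (0) they were 1 with 25 males, 1 with both sexes, 3 in numbers 65 to 85 and 2 in 1 to 40 with both sexes. For vAKI against iAKI in the Hoxb7 pulldown (2) they were 1 with the fold threshold, 1 with both sexes, 0 in females, 3 in numbers 1 to 40, with Slc5a12 added as higher, 1 there with both sexes and 1 to 2 when single libraries were left out, and in the Atp6b1v1 pulldown (6) 2 in females, 10 in numbers 1 to 40, 9 there with both sexes and 5 to 8 when single libraries were left out. The driver difference for iAKI (1) gave 3 by DESeq2, 0 with both sexes, 0 in females, 6 in numbers 1 to 40, 4 there with both sexes and 0 to 1 when single libraries were left out. By sex, Total (4) gave 0 with the fold threshold, and the Atp6b1v1 pulldown (1) gave 2 by DESeq2, 3 with the covariate and 0 to 1 when single libraries were left out. The sex difference of the response in the Hoxb7 pulldown gave 0 to 1 for iAKI (0) and 1 to 2 for vAKI (1) when single libraries were left out, both from Control replicate 1. Between the control pulldowns (0), 1 was called in numbers 1 to 40 and 1 in 65 to 85. The cause of these moves was not tested, beyond the fewer libraries in single ranges and single sexes.

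Replicate numbers were not used as pairs. Same-numbered deviations correlated with both signs (Hoxb7 Control with Total from -0.20 to 0.53). Their mean r was 0.0836 for Hoxb7 Control with Total, beside -0.00296 for other pairs. For Atp6b1v1 Control with Total it was 0.164, beside -0.00759. That check cannot exclude pairing, since Total replicates are numbered across both genotypes, and pairing by sample order was not tested. A replicate block joins libraries of equal number, some of them of different sex or genotype, and so does not test pairing by mouse. With that block, 10 genes were called for Hoxb7 against Total (8 in the report) and 9 for Atp6b1v1 against Total. Between the control pulldowns 1 was called, and 0 for iAKI in either pulldown. In the Hoxb7 and Atp6b1v1 pulldowns 1 and 0 were called for vAKI, and 1 and 6 for vAKI against iAKI. Each driver difference gave 0.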
